A study of Homo sapiens with 6 samples.

Results

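Interferon-stimulated genes and the cytosolic sensors of foreign RNA were examined in MDA-MB231 cells, a long-established line of triple-negative breast cancer, with and without an shRNA against ROR1. The 39 genes were taken by symbol from a list of well-known members of this response, and all 39 were found among the 57445 genes of the deposited table. Of these, 37 passed the expression filter of at least 1 TPM in at least 3 libraries, as did 16554 genes overall. Levels are given as TPM, the number of transcripts of a gene per 1000000 transcripts, which takes its length into account and so allows genes to be compared.

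Cells were transduced with a lentiviral pGIPZ vector that carried either a non-silencing shRNA (shCTL, 3 libraries) or a Ror1 shRNA (shRor1, 3 libraries), and both groups were selected with 2 µg/ml puromycin. By the methods of the study, the cells of both groups carried a vector for a hairpin RNA and grew in RPMI medium with serum. Expression of the hairpin was not examined here. The libraries were made from 1000 ng of total RNA with a strand-specific kit and sequenced as single reads of 50 bases. The study asked which genes respond when the Wnt receptor ROR1 is lowered. The sample labels describe the control as carrying an empty vector and the RNA as polyadenylated, which differs from the methods of the study. The word DMSO stands in the header of the control columns and is explained by no label and no method, so that a solvent difference between the groups cannot be told apart from the shRNA. No source says that the libraries of a group came from separate cultures or clones, so p-values measure only the spread between these samples. The columns carry no replicate number, and the libraries are called the first, the second and the third by their order in the table.

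ROR1, the target of the shRNA, had 15.4, 13.5 and 20.6 TPM in shCTL and 9.34, 11.9 and 14.9 TPM in shRor1. The shRor1 mean was 73.01% of that in shCTL, with overlapping groups (log2 fold change -0.43, SE 0.20, adjusted p = 0.984 from limma). The study reported a stable knockdown with a western blot of Ror1 protein, and lower RhoA levels and JNK phosphorylation in these cells. Protein was not examined here. With 1 library left out the log2 fold change of ROR1 ran from -0.58 to -0.26. It was -0.26 when the third shCTL library was dropped, -0.27 when the first shRor1 library was, and -0.58 when the third shRor1 library was. Between 16036 and 17033 genes reached 1 TPM per library, with the highest number in the third shRor1 library, and the mitochondrial transcripts took 7.57% to 9.90% of the TPM. The line was checked against marker lists. The 6 markers of basal cancer lines summed to 4173 to 4646 TPM. Of the 4 luminal breast markers, ESR1 was at 0.10 to 0.21 TPM and PGR at or near 0. The other luminal markers were expressed, GATA3 at 3.83 to 4.69 TPM and TFF1 at 2.05 to 15.3 TPM. Of 7 leukocyte markers, 5 were below 1 TPM in all libraries, with PTPRC at most at 0.39 TPM, MS4A1 at 0 and CD68, which tumour cells also express, at 138 to 239 TPM. The plasmacytoid dendritic cell markers, which mark the main interferon-producing blood cell, summed to 0.21 to 0.44 TPM.

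Type I and type III interferons bind receptors at the cell surface, and the JAK kinases then activate STAT2, which acts with IRF9 in the complex ISGF3. ISGF3 enters the nucleus and binds the interferon-stimulated response element (ISRE) in front of its target genes, whose products bind viral RNA, block entry or release of virus, or change protein synthesis. The sensors RIG-I and MDA5 detect foreign RNA in the cytosol and start interferon production, and they are themselves interferon-inducible. Many breast cancer lines keep part of this programme on without added interferon.

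The promoters of abundant members are shown first, since the ISRE is the DNA element that ISGF3 binds. An ISRE was searched as GAAANNGAAA on one strand or TTTCNNTTTC on the other in the RefSeq promoter windows, which run from 250 bases before to 50 bases after the start site. At least 1 match was present in 20 of the 31 members with an entry in that table (64.5%), against 1195 of 27305 genes (4.38%). A longer form of the element, GAAANNGAAACT, which is contained in the first, was present in 14 of the 31 (45.2%) against 0.322% of all genes. A different motif, TTCNNNGAA (GAS), was present in 9 of the 31 (29.0%) against 9.38% of all genes. IRF1, IRF9, OAS1 and IFI35, which had no ISRE match, were among them. Neighbouring ISRE matches overlapped in ISG15, BST2, HERC5 and IFIH1. A match is a description of letters and does not show that a factor binds there. The 5 stretches below, written 5′ to 3′ on the strand of the gene with the ISRE matches in capitals, come from members with a mean of at least 20 TPM and lie outside all exons that GENCODE annotates.
IFITM3: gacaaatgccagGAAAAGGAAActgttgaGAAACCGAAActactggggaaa
ISG15: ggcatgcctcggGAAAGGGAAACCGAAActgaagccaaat
IFI44: gggcacactgagTTTCAGTTTCctttctct
IFI6: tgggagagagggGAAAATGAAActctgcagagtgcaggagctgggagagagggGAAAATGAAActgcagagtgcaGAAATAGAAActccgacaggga
IFIT1: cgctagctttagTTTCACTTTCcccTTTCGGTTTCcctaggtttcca

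Each stretch was found at 1 place in the GRCh37 genome. That of IFITM3 lies at chr11:320874-320924 on the minus strand, from position -64 to -14 relative to the start site, within an intron of longer IFITM3 transcripts. That of ISG15 lies at chr1:948752-948791 on the plus strand, from position -125 to -86, within an intron of longer ISG15 transcripts. That of IFI44 lies at chr1:79115444-79115473 on the plus strand and ends at the base before the start site. That of IFI6 lies at chr1:27998775-27998871 on the minus strand, from position -168 to -72, and holds 3 ISRE matches within an intron of a gene without a symbol on the other strand. That of IFIT1 lies at chr10:91152252-91152298 on the plus strand, from position -128 to -82 and within an intron of LIPA, which runs on the other strand. No match was found in the windows of CMPK2, DDX58, HERC6, IFI35, IRF1, IRF9, OAS1, SAMD9L, STAT2, UBE2L6 and XAF1, which says only that these letters were not in these windows.

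Many members lie side by side in the genome. With a gap of at most 200 kb between neighbours, IFIT2, IFIT3, IFIT1 and IFIT5 form a cluster of 137.9 kb on chromosome 10 (91043451 to 91181362), OAS1, OAS3 and OAS2 a cluster of 105.9 kb on chromosome 12 (113343661 to 113449528), and IFITM2, IFITM1 and IFITM3 a cluster of 25.8 kb on chromosome 11 (303655 to 329475). MX2 and MX1, IFI44L and IFI44, PARP9 and PARP14, HERC6 and HERC5, SAMD9 and SAMD9L, and CMPK2 and RSAD2 form pairs.

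The cells expressed most of these genes in both groups. In every library, 36 of the 39 members were at 1 TPM or more, 20 were at 10 TPM or more, and 3 (IFITM3, BST2 and EIF2AK2) were at 50 TPM or more. The exceptions at the low end were IFITM1, RSAD2 and CMPK2. Summed over the 39 members, the level was 947, 920 and 1162 TPM in shCTL and 1005, 916 and 1278 TPM in shRor1, highest in the third library of each group.

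**Figure D1:**
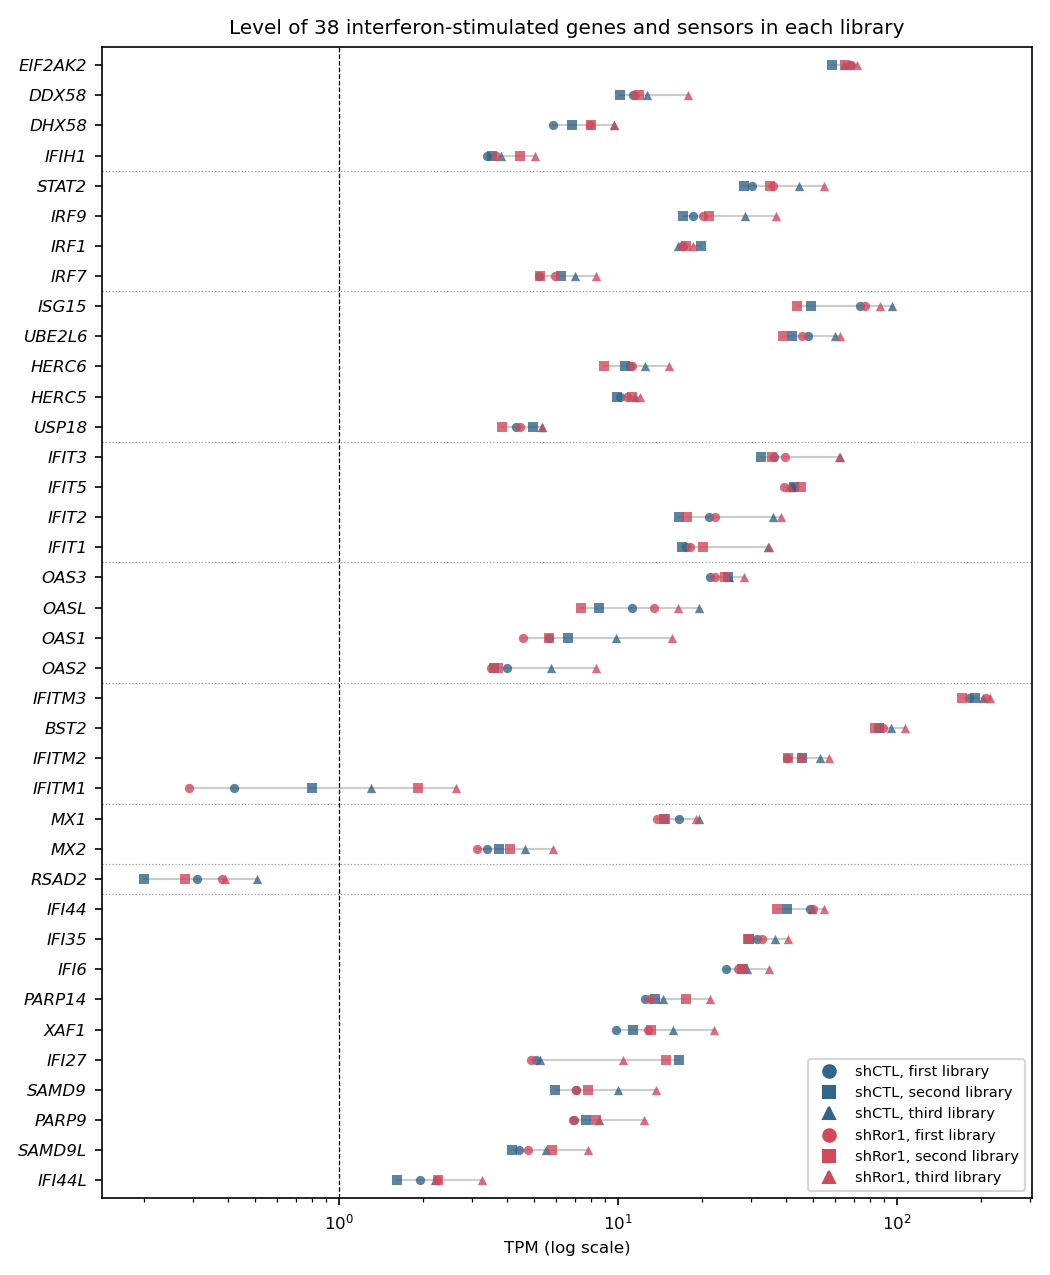
TPM on a log axis for the 38 members with a value above 0, ordered by role and then by mean, with 1 point per library (blue shCTL, red shRor1; circles the first, squares the second, triangles the third library) and a dashed line at 1 TPM. IFITM3 has the highest levels at 171 to 215 TPM, and the triangles of both colours are to the right in most rows.

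With the ROR1 shRNA, no member passed the test. At an adjusted p below 0.05, 0 of the 37 tested members and 0.0% of all genes were called, and the adjusted p of the members ran from 0.984 to 0.996. At the same threshold the study, which used a count model, reported only AGR2 and a gene for an uncharacterized protein. AGR2 is not a member. At an unadjusted p below 0.05, 0 of 37 members were called, against a background of 2.31% of all genes higher and 0.544% lower in shRor1. The log2 fold change, shRor1 minus shCTL on the log2(TPM + 1) scale, was positive in 30 members and negative in 7, with a median of 0.10 against 0.05 over all genes tested. Without the third shRor1 library the split turned to 13 positive and 24 negative, with a median of -0.03 against 0.03 over all genes. Of all genes, 67.0% had a positive value, and after median ratio scaling of the libraries the split of the members was 25 to 12 (67.6% positive) against 50.2% positive over all genes. In 1 of 37 members, IFI44L, all shRor1 libraries were above all shCTL libraries, where 6.48% of all genes showed this and 1.3% the opposite. In bulk samples, fewer cells that express a gene and less RNA per cell cannot be told apart.

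**Figure D2:**
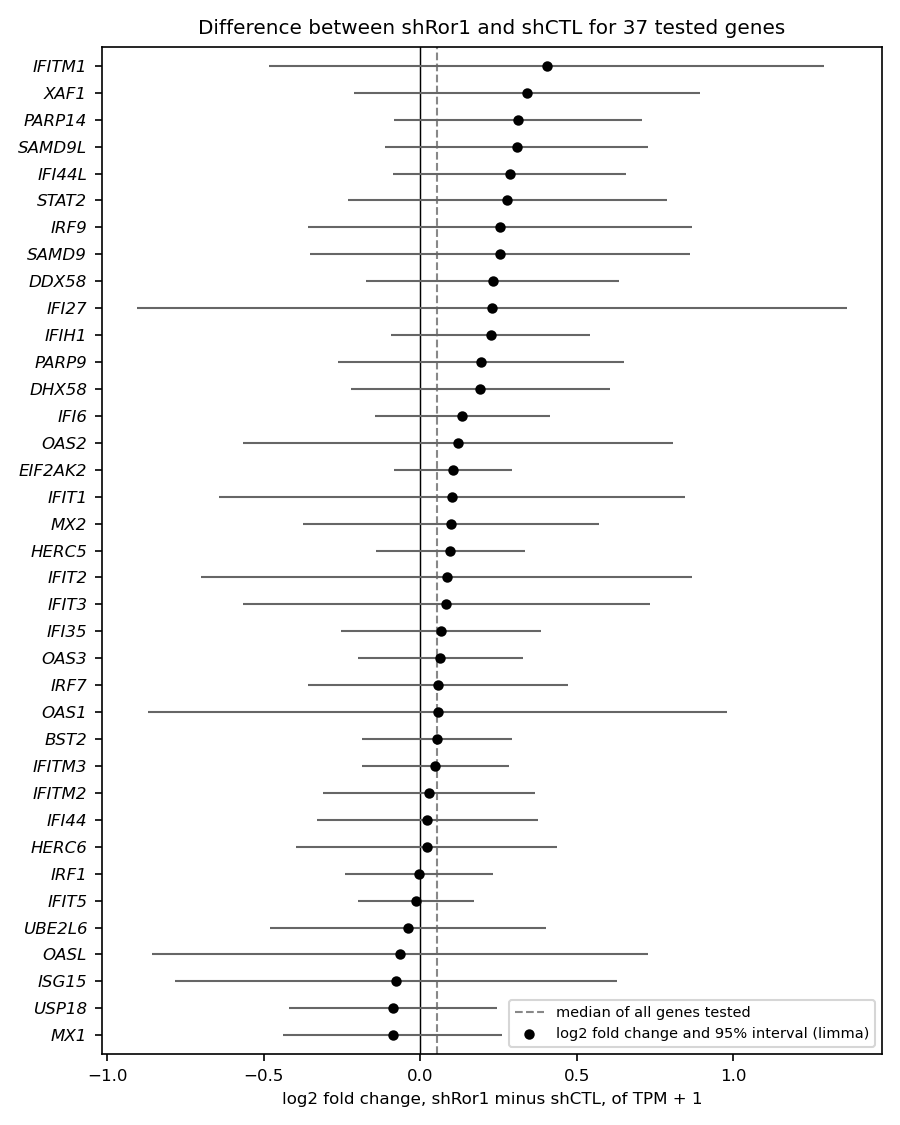
Log2 fold change between shRor1 and shCTL of TPM + 1 for the 37 tested members (points) with its 95% interval from limma (lines). The dashed line is the median of all genes tested, 0.05, and the interval of every member includes 0.

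The width of the intervals differed between members. For 18 of the 37 members the 95% interval of the difference stayed within a 1.5-fold change in either direction, and for 19 it reached beyond it. The narrowest SE was 0.08, for IFIT5 and EIF2AK2, and the widest was 0.49, for IFI27.

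The sensors of foreign RNA were expressed in all libraries, with EIF2AK2 at several times the level of the helicase genes. EIF2AK2, which encodes PKR, the kinase that halts protein synthesis after binding viral RNA, had 67.9, 58.7 and 64.7 TPM in shCTL and 68.3, 65.4 and 72.0 TPM in shRor1. The groups overlapped, and the spread within each was small (log2 fold change 0.10, SE 0.08, adjusted p = 0.984 from limma). DDX58, now named RIGI, encodes RIG-I, the sensor of uncapped viral RNA. It had 11.3, 10.2 and 12.7 TPM in shCTL and 11.5, 11.9 and 17.8 TPM in shRor1. The third shRor1 library was highest and the third shCTL library next (log2 fold change 0.23, SE 0.17, adjusted p = 0.984 from limma). Of the 50-base words of its transcript, 96.6% also occur in ENSG00000288684, a later gene model that has no row in the deposited table.

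IFIH1, which encodes MDA5, the sensor of long RNA duplexes, had 3.38, 3.53 and 3.82 TPM in shCTL and 3.65, 4.44 and 5.03 TPM in shRor1. The first shRor1 library lay within the shCTL range and the other two above it (log2 fold change 0.22, SE 0.14, adjusted p = 0.984 from limma). DHX58, which encodes LGP2, a related helicase that tunes the other sensors, had 5.87, 6.82 and 9.67 TPM in shCTL and 7.91, 7.98 and 9.68 TPM in shRor1. Here the third libraries of both groups were level and stood above the rest (log2 fold change 0.19, SE 0.18, adjusted p = 0.984 from limma). By the exact two-sided permutation test, which cannot go below p = 0.1 with 3 against 3 libraries, the sensors gave p = 0.2 for EIF2AK2 and IFIH1 and p = 0.4 for DDX58 and DHX58.

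The transcription factors that carry the interferon signal fell into a variable and a steady kind. STAT2, the subunit of ISGF3 that activates transcription, had 30.3, 28.3 and 44.6 TPM in shCTL and 35.9, 35.1 and 55.0 TPM in shRor1. IRF9, the subunit of ISGF3 that reads the DNA, had 18.5, 17.1 and 28.5 TPM in shCTL and 20.2, 21.1 and 36.8 TPM in shRor1. In both genes the third library was highest in each group, by a highest-to-lowest ratio of 1.57 in shCTL and 1.57 in shRor1 for STAT2 and of 1.67 and 1.83 for IRF9. The differences between the groups were smaller than this spread (log2 fold change 0.28, SE 0.22 for STAT2 and 0.25, SE 0.26 for IRF9, adjusted p = 0.984 from limma for each). For IRF9, 92.8% of the words occur also in an overlapping annotated gene, ENSG00000259529, which was at 1.81 to 2.77 TPM.

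IRF7, which amplifies interferon production, had 5.23, 6.24 and 7.04 TPM in shCTL and 5.95, 5.27 and 8.36 TPM in shRor1, again highest in the third library of each group. IRF1, a factor of the interferon gamma response, stayed at 16.5 to 19.9 TPM in shCTL and 17.0 to 18.6 TPM in shRor1. Its highest library was the second shCTL library and its lowest the third shCTL library, an order that differs from that of the other factors.

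ISG15, a ubiquitin-like protein that is attached to other proteins, varied more within the groups than between them. It had 73.6, 49.0 and 96.2 TPM in shCTL and 77.1, 43.97 and 86.7 TPM in shRor1. In both groups the third library was highest, the first in between and the second lowest (log2 fold change -0.08, SE 0.30, adjusted p = 0.987 from limma). UBE2L6, the enzyme that conjugates ISG15, had 47.8, 42.1 and 60.2 TPM in shCTL and 45.8, 39.0 and 62.3 TPM in shRor1. It took the same order of libraries (log2 fold change -0.04, SE 0.19, adjusted p = 0.992 from limma). HERC5, the ligase that completes the transfer of ISG15, was at 9.95 to 11.5 TPM in shCTL and 10.8 to 11.97 TPM in shRor1, and the related HERC6 at 10.6 to 12.5 and 8.94 to 15.2 TPM. USP18, which removes ISG15 and dampens the interferon receptor, was at 4.32 to 5.36 TPM in shCTL and 3.85 to 5.33 TPM in shRor1. It shares 27.0% of its words with other annotated genes, USP41 among them. USP41 had 0.76, 2.69 and 3.34 TPM in shCTL and 1.69, 0 and 0.21 TPM in shRor1. Summed with USP41, USP18 had 5.08, 7.63 and 8.70 TPM in shCTL and 6.14, 3.85 and 5.54 TPM in shRor1. In this sum the third shRor1 library was not the highest of its group. How reads were divided between USP18 and USP41 was not tested.

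Of the IFIT family, whose proteins bind RNA that lacks the caps of the host, IFIT1, IFIT2 and IFIT3 were highest in the third library of each group and IFIT5 was not. IFIT1 had 17.5, 16.9 and 34.6 TPM in shCTL and 18.2, 20.1 and 34.9 TPM in shRor1. IFIT2 had 21.2, 16.5 and 36.0 TPM in shCTL and 22.4, 17.7 and 38.4 TPM in shRor1. IFIT3 had 36.2, 32.5 and 62.4 TPM in shCTL and 39.7, 35.6 and 62.1 TPM in shRor1. In all 3 genes the third libraries of both groups stood above the other 4 libraries, with a highest-to-lowest ratio from 1.92 to 2.18 in shCTL and from 1.74 to 2.18 in shRor1. IFIT5, in the same cluster, had 42.2, 42.6 and 42.0 TPM in shCTL and 39.3, 45.5 and 41.1 TPM in shRor1. The third shCTL library was the lowest of its group and the third shRor1 library lay between the others, and the ratios were 1.02 and 1.16. The log2 fold changes of the family were 0.10 (SE 0.32) for IFIT1, 0.08 (SE 0.34) for IFIT2, 0.08 (SE 0.28) for IFIT3 and -0.01 (SE 0.08) for IFIT5.

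The OAS family makes oligoadenylates that activate RNase L, apart from OASL, which lacks this activity and helps RIG-I. OAS3 was the most abundant and the steadiest, at 21.4 to 25.0 TPM in shCTL and 22.3 to 28.3 TPM in shRor1. OAS1 had 5.66, 6.60 and 9.85 TPM in shCTL and 4.58, 5.68 and 15.6 TPM in shRor1. OAS2 had 4.01, 3.58 and 5.73 TPM in shCTL and 3.51, 3.72 and 8.33 TPM in shRor1. OASL had 11.2, 8.57 and 19.5 TPM in shCTL and 13.4, 7.36 and 16.4 TPM in shRor1. In all of them the third library was highest within its group, and for OAS1 the third shRor1 library reached 3.40 times the lowest shRor1 library. The log2 fold changes ran from -0.07 for OASL to 0.12 for OAS2.

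Among the factors that act at membranes, IFITM3 and BST2 had the highest levels of all members. IFITM3, which blocks the fusion of viruses in endosomes, had 181, 190 and 203 TPM in shCTL and 209, 171 and 215 TPM in shRor1. The groups overlapped, with the second shRor1 library lowest of all (log2 fold change 0.05, SE 0.10, adjusted p = 0.986 from limma). BST2, or tetherin, which holds budding virus at the surface, had 86.2, 86.5 and 95.01 TPM in shCTL and 88.9, 83.5 and 107 TPM in shRor1. It differed by less than the spread between libraries (log2 fold change 0.05, SE 0.10, adjusted p = 0.986 from limma). IFITM2, a relative of IFITM3 with a like role, had 40.5, 45.7 and 53.1 TPM in shCTL and 45.4, 40.5 and 56.9 TPM in shRor1. The third library was highest in each group (log2 fold change 0.03, SE 0.15, adjusted p = 0.992 from limma). The sign of these 3 small differences turned negative after median ratio scaling.

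IFITM1, which acts at the cell surface, was near the filter, at 0.42, 0.80 and 1.30 TPM in shCTL and 0.29, 1.92 and 2.62 TPM in shRor1. It had the largest log2 fold change of the 37 members, 0.40 (SE 0.38), and overlapping groups. The 3 IFITM genes share 50-base words with each other or with a gene model without a symbol, in 55.1% of the words for IFITM1, 20.8% for IFITM3 and 12.02% for IFITM2. That model, ENSG00000288681, has no row in the deposited table and holds the larger part of these words for IFITM1, so the shares do not measure how reads were divided.

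The dynamin-like GTPases MX1 and MX2, which trap viral nucleocapsids, were at 14.6 to 19.5 and 3.40 to 4.64 TPM in shCTL and at 13.8 to 19.04 and 3.13 to 5.86 TPM in shRor1. RSAD2, or viperin, which makes an antiviral nucleotide, was at 0.20 to 0.51 TPM and was not tested. CMPK2, the mitochondrial nucleotide kinase next to it, is listed at 0 in all 6 libraries.

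After IFITM1, the largest differences were among the other interferon-inducible genes, and none passed the test. All 10 had a positive log2 fold change, from 0.02 to 0.34, with a median of 0.24, against 67.0% positive over all genes. After median ratio scaling 9 of the 10 were positive, against 50.2% over all genes, and without the third shRor1 library 6 were, against 58.7%. PARP14, an ADP-ribosyltransferase, had 12.6, 13.5 and 14.5 TPM in shCTL and 13.0, 17.6 and 21.5 TPM in shRor1. The first shRor1 library lay within the shCTL range and the others above it (log2 fold change 0.31, SE 0.17, adjusted p = 0.984 from limma). Its neighbour and partner PARP9 was at 6.98 to 8.53 TPM in shCTL and 6.90 to 12.4 TPM in shRor1.

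IFI44L, an interferon-induced protein of little-known function, had 1.95, 1.62 and 2.21 TPM in shCTL and 2.24, 2.26 and 3.25 TPM in shRor1. The groups did not overlap, but the highest shCTL and the lowest shRor1 library lay next to each other (log2 fold change 0.29, SE 0.16, adjusted p = 0.984 from limma; exact permutation p = 0.1, the smallest possible). IFI44, beside it on chromosome 1, was far more abundant, at 40.4 to 49.5 TPM in shCTL and 37.2 to 54.8 TPM in shRor1.

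SAMD9L, which restricts viruses by halting protein synthesis, had 4.41, 4.18 and 5.51 TPM in shCTL and 4.77, 5.80 and 7.82 TPM in shRor1. Its groups overlapped, with the second shRor1 library and the third on top (log2 fold change 0.31, SE 0.18, adjusted p = 0.984 from limma). The paralog SAMD9 was at 5.94 to 9.98 TPM in shCTL and 7.06 to 13.7 TPM in shRor1. XAF1, a pro-apoptotic protein that binds XIAP, had 9.82, 11.3 and 15.7 TPM in shCTL and 12.8, 13.2 and 22.1 TPM in shRor1. The third library was again highest within each group (log2 fold change 0.34, SE 0.24, adjusted p = 0.984 from limma). Of the words of XAF1, 73.9% overlap transcripts annotated on the other strand, and whether the authors' estimate used strand is not given in the sources used here.

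IFI27, a small protein of internal membranes, took an order of its own, with 5.09, 16.5 and 5.24 TPM in shCTL and 4.89, 14.9 and 10.5 TPM in shRor1. The second library of each group was highest, 3.25 times the lowest in shCTL and 3.05 times in shRor1. IFI6, a small protein of mitochondria and endoplasmic reticulum, was at 24.3 to 29.1 TPM in shCTL and 27.0 to 34.8 TPM in shRor1. IFI35, a partner of other interferon-induced proteins, was at 29.5 to 36.5 TPM in shCTL and 29.1 to 40.7 TPM in shRor1.

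Library by library, most members were highest in the third library of each group. The third shRor1 library held the highest of the 6 values in 29 of 37 members (78.4%), against 35.1% of all genes tested. The third library was the highest of its group in 33 of 37 members in shCTL and 35 of 37 in shRor1, against 50.7% and 46.2% of all genes. Both held in 33 members (89.2%), against 33.6% of all genes. The 4 exceptions were EIF2AK2, IFIT5, IRF1 and IFI27. In 26 of the 37 members, the third libraries of both groups lay above the other 4. The share of all genes with this order was not computed, so this count has no background beside it. After median ratio scaling the third library was highest in both groups in 29 of 37 members (78.4%, against 22.4% of all genes), and after quantile normalization in 25 of 37 (67.6%, against 20.3%). These shares describe libraries and were not put to a test. No source gives a batch, and nothing ties a column of one group to the column of the same position in the other, so that a shared batch of the third columns was not tested.

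**Figure D3:**
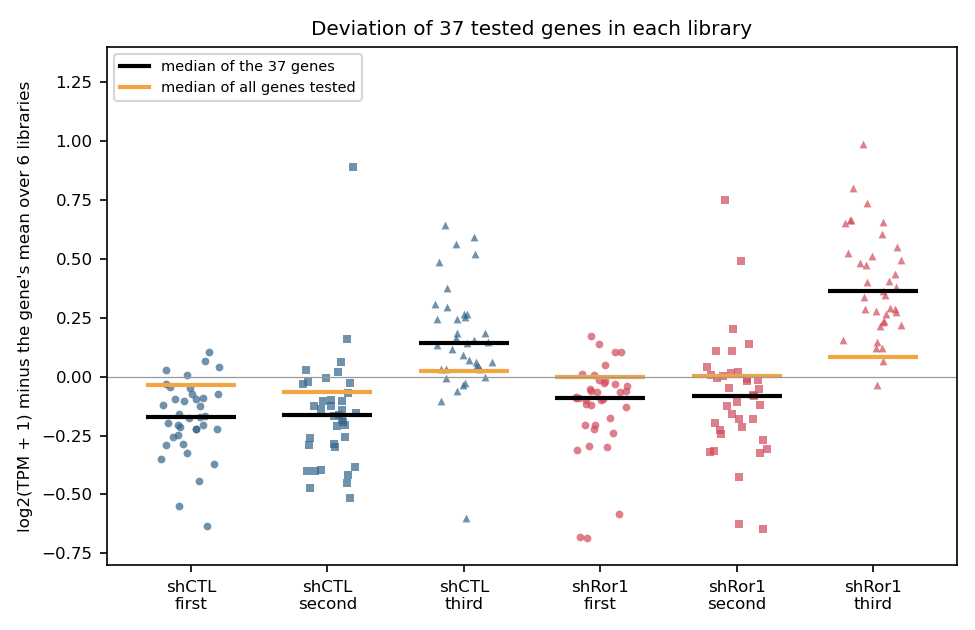
Log2(TPM + 1) of each of the 37 tested members minus its mean over the 6 libraries, with the median of the members (black bar) and of all genes tested (orange bar) per library. The members' medians are 0.14 and 0.36 in the third shCTL library and the third shRor1 library and between -0.17 and -0.08 in the others, while those of all genes stay between -0.06 and 0.08.

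The median range within a group was 0.36 on the log2 scale in shCTL and 0.61 in shRor1 for the members, against 0.24 and 0.30 for all genes. Beside this, the third libraries had the most genes at 1 TPM or more in each group (16597 and 17033) and the largest mitochondrial share (9.61% and 9.90%). Of the 2 endothelial markers found, the cadherin CDH5 was highest there (1.47 and 1.56 TPM, against 0.32 to 0.54 TPM in the others). VWF was near 0, at 0.19 and 0.21 TPM there, against 0.02 to 0.10 TPM. Of the 4 fibroblast markers, COL1A1 was highest there (13.9 and 11.2 TPM, against 7.25 to 8.43 TPM) and carried most of their sum, which was 14.9 and 13.0 TPM against 8.77 to 9.88 TPM. DCN was lowest in the third shCTL library (0.76 TPM, against 1.17 to 1.38 TPM in the other 5), PDGFRA was at 0.22 to 0.59 TPM with no such order in shCTL, and LUM was at 0 in all libraries. The 7 leukocyte markers, mostly CD68, summed to 182 and 175 TPM there, against 139 to 240 TPM in the others. FCER1G was highest in the third library of each group (1.57 and 1.37 TPM, against 0.70 to 1.22 TPM). PTPRC and CD14 were highest in the third shRor1 library but not in the third shCTL library, and LYZ was highest in the third shCTL library. CD68 and CD3E were highest in the third library of neither group, and MS4A1 was at 0. The part of these differences in the pattern was not tested.

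Members differed in how far they varied within a group. The highest-to-lowest ratio was at least 1.5 in both groups for 13 members, among them ISG15, IFIT1, IFIT2, IFIT3, STAT2, IRF9, OAS1, OAS2 and OASL, and under 1.5 in both groups for 15. It was under 1.2 in both groups for EIF2AK2, IFIT5 and HERC5. The ratio was wider in shRor1 than in shCTL in 27 of the 37 members. The share of all genes was not computed, but their median range was also wider in shRor1 (0.30 on the log2 scale) than in shCTL (0.24). Of the 19 tested members with an ISRE match in the promoter window, 16 were highest in the third library of both groups, the exceptions being EIF2AK2, IFI27 and IFIT5. Of the 10 without a match, 9 were, the exception being IRF1.

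**Figure D4:**
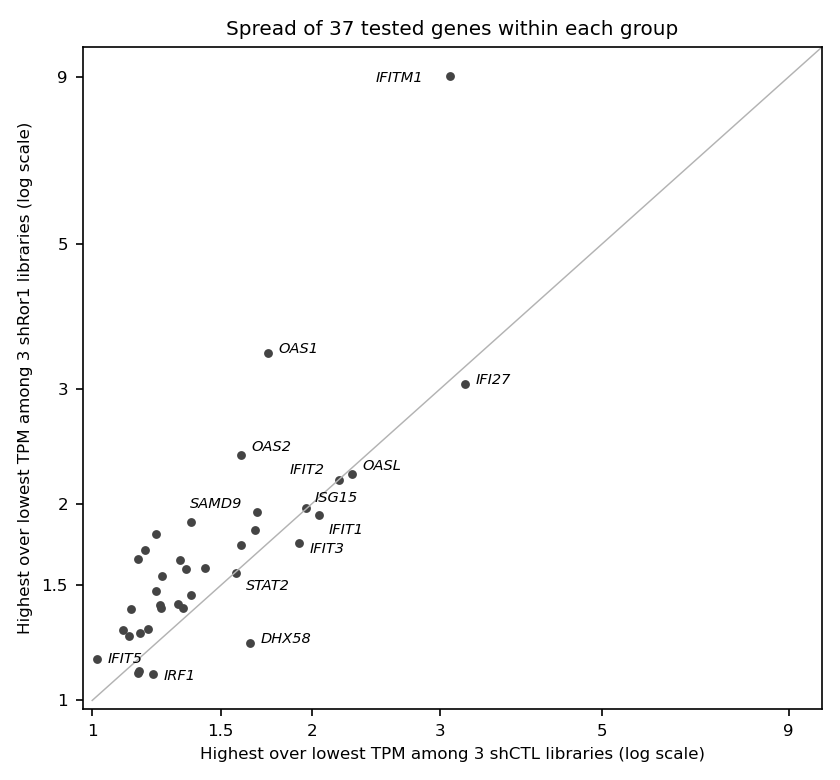
Highest over lowest TPM among the 3 shRor1 libraries against the same ratio among the 3 shCTL libraries for the 37 tested members, on log axes with a line of equal ratios. IFIT1, IFIT2, IFIT3, ISG15 and OASL lie near 2 on both axes, IFIT5 and IRF1 near 1, and 27 members lie above the line.

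The interferon genes that were looked up were at or near 0, while the receptor genes were expressed. Other interferon genes, among them the rest of the IFNA genes, were not examined. Of 15 ligands and receptors, the interferon genes IFNA1, IFNA2, IFNB1, IFNE, IFNK, IFNG and IFNL2 are listed at 0 in all 6 libraries, and IFNL1 and IFNL3 reached at most 0.16 and 0.07 TPM. The 6 receptor genes were all tested, and none passed at an adjusted p below 0.05. All 6 had a positive log2 fold change, against 67.0% of all genes, and all 6 after median ratio scaling, against 50.2%. Without the third shRor1 library 4 of the 6 were positive, against 58.7% of all genes. IFNGR2 and IFNAR1, subunits of the gamma and type I receptors, were the most abundant. IFNGR2 had 38.2, 38.8 and 40.0 TPM in shCTL and 35.6, 46.2 and 50.1 TPM in shRor1. IFNAR1 had 30.7, 27.0 and 29.5 TPM in shCTL and 28.7, 36.9 and 35.3 TPM in shRor1. In both, the first shRor1 library lay within or below the shCTL range and the others above it. IFNGR1, the ligand-binding subunit for interferon gamma, had 26.4, 25.2 and 24.5 TPM in shCTL and 28.0, 29.6 and 30.2 TPM in shRor1. Its groups did not overlap, the only such case among the 6 receptor genes, against 6.48% of all genes in this direction. It did not pass the adjusted test (log2 fold change 0.20, SE 0.08, adjusted p = 0.984 from limma).

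Of 11 signalling genes, 10 were tested and 0 were called. A positive log2 fold change was found in 9 as deposited and in 3 after median ratio scaling, where the median turned from 0.04 to -0.02. Over all genes, 67.0% were positive as deposited and 50.2% after this scaling. STAT3 was at 75.4 to 82.7 TPM in shCTL and 73.4 to 83.8 TPM in shRor1, and PTPN1, a phosphatase that acts on JAK kinases, at 74.8 to 90.6 and 67.7 to 83.6 TPM. Of 17 sensor adaptors and partners, all were tested and 0 were called, with 13 positive log2 fold changes as deposited and 7 after median ratio scaling, where the median turned from 0.04 to -0.01. TRIM25, a ubiquitin ligase of the RIG-I pathway, was at 77.5 to 82.6 TPM in shCTL and 72.2 to 90.7 TPM in shRor1, and ADAR, which edits RNA duplexes, at 76.0 to 77.6 and 76.4 to 83.6 TPM.

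Of 46 further interferon-stimulated genes, 40 were tested and 0 were called. A positive log2 fold change was found in 37, against 67.0% of all genes, and a negative one in 3. The median was 0.09 against 0.05 over all genes. After median ratio scaling 24 of the 40 were positive, against 50.2% of all genes, and without the third shRor1 library 22 were, against 58.7%. LGALS3BP, a secreted glycoprotein, had 369, 390 and 415 TPM in shCTL and 415, 428 and 439 TPM in shRor1. Its groups did not overlap, which held in this direction for 3 of the 40, against 6.48% of all genes. SHISA5 was at 102 to 108 TPM in shCTL and 94.5 to 113 TPM in shRor1. DDX60, a helicase linked to RIG-I, was the only one of the 40 with an unadjusted p below 0.05 (against 2.31% of all genes in this direction), and it did not pass the adjusted test. It had 7.08, 7.5 and 7.86 TPM in shCTL and 8.22, 9.83 and 10.2 TPM in shRor1 (log2 fold change 0.29, SE 0.12, adjusted p = 0.984 from limma). Of the 40, 24 were highest in the third library of both groups, against 33 of the 37 members and 33.6% of all genes.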

How the data were processed

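RNA-seq was measured in 3 shCTL and 3 shRor1 libraries of MDA-MB231 cells. The authors mapped reads to GRCh37 with STAR, using Ensembl 73, and obtained gene abundances from RSEM 1.2.5. The deposited values are TPM with 2 decimals, although the table is named for expected counts, and each column sums to 1000000. Depth per library is not held in TPM, so no counting error could be given and no count model was fitted.

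The filter kept genes that reached 1 TPM in 3 or more libraries. Values were transformed to log2(TPM + 1), a fold change on this scale understates changes of low genes, and limma 3.58.1 in R 4.3.3 was fitted with the condition as the only term and a mean-variance trend. P-values were adjusted by Benjamini-Hochberg over all 16554 genes. An exact two-sided permutation test was added for single genes. The fit was tested on simulated data.

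The members and lists were chosen with earlier results of these data known. Full statistics were given for the 4 sensors, the 6 members with the highest mean TPM and the 6 with the smallest p. In the other lists, values were given for the 2 genes of highest mean TPM and any with an unadjusted p below 0.05. Other genes given by value, such as the IFIT and OAS families, STAT2, IRF9, CDH5 and COL1A1, were chosen after their values were seen.

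Symbols and loci came from the gene name table and GENCODE 44 mapped to GRCh37. Shared sequence was counted as 50-base words of the canonical transcript found in other genes. Promoters came from RefSeq (table of GRCh38.p14) and were placed on GRCh37 by exact match. IKBKE and the endothelial marker PECAM1 were not matched to exactly 1 gene and are not analysed here. Alternatives were other pseudocounts, filters, scalings and empirical Bayes settings, and each library left out in turn.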

Additional observations from a re-analysis of the deposited data

How the results depend on the processing

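No paired analysis was possible because replicate numbers are missing from the 2 distinct headers of the columns. No member had an adjusted p below 0.05 under any of 14 alternative fits, where the smallest adjusted p from limma was 0.44. Members with an unadjusted p below 0.05 numbered 0, and from 0 to 4 with 1 library left out, namely DHX58 and STAT2 without the third shCTL library (3.55% of all genes called higher) and IFIH1, IFITM1, PARP14 and SAMD9L without the first shRor1 library, where the share was 7.74%. Without the third libraries of both groups, an alternative chosen after seeing the data, it was 1 (STAT2), against 2.22% of all genes higher. Genes at an unadjusted p below 0.05 numbered 472, 1363 without a filter, 227 at a mean of at least 5 TPM, and 278 to 1720 with 1 library left out. Genes with an adjusted p below 0.05 numbered 0, 1 without the third libraries of both groups, and 0 to 1 with 1 library left out.

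The members' median log2 fold change of 0.10 ran from -0.03 (without the third shRor1 library, 13 of 37 positive) to 0.21 with 1 library left out, and was 0.04 after median ratio scaling or quantile normalization, which lowered the number of positive members from 30 to 25 and 24. Of the 13 members with full statistics, 8 kept their direction in every alternative in which they were tested (IFIH1 and IFI44L had no fit at a mean of at least 5 TPM). With 1 library left out these ran from 0.04 to 0.34 for DDX58, 0.14 to 0.32 for IFIH1, 0.06 to 0.37 for DHX58, 0.05 to 0.15 for EIF2AK2, 0.15 to 0.49 for PARP14, 0.16 to 0.35 for IFI44L, 0.14 to 0.45 for SAMD9L and 0.10 to 0.52 for XAF1. The lowest value was without the third shRor1 library in 6 of them, without the first shCTL library in DHX58 and without the second shCTL library in EIF2AK2. IFITM2 turned to -0.031 with median ratio scaling, -0.002 with quantile normalization and -0.0055 without the third libraries of both groups. IFITM3 turned to -0.013 with median ratio scaling, and BST2 to -0.0066 with it and to -0.0038 without the third libraries of both groups. With 1 library left out the log2 fold change ran from -0.105 to 0.135 for IFITM2, -0.013 to 0.150 for IFITM3, -0.049 to 0.128 for BST2, -0.334 to 0.215 for ISG15 and -0.223 to 0.108 for UBE2L6. The causes were not tested. The scalings of the library order were also chosen after seeing the data.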

Other observations

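The following genes outside the members were chosen after their values were seen. GBP2, a guanylate-binding protein of the interferon gamma response, had 9.61, 8.68 and 17.98 TPM in shCTL and 8.28, 10.9 and 34.3 TPM in shRor1. SAT1, a polyamine-catabolic enzyme that type I interferon can induce, had 64.7, 69.6 and 101 TPM in shCTL and 69.8, 89.7 and 193 TPM in shRor1. TMEM173, which encodes STING, the adaptor of cytosolic DNA sensing, had 20.6, 19.6 and 37.7 TPM in shCTL and 23.5, 24.4 and 42.6 TPM in shRor1. In GBP2, SAT1 and TMEM173 the third library was highest within its group. The cytosolic DNA sensor upstream of STING, MB21D1 or cGAS, was lowest in the third library of both groups, at 28.6, 28.7 and 26.0 TPM in shCTL and 31.4, 36.2 and 27.0 TPM in shRor1. TFF1, a trefoil factor, was highest in the second libraries, like IFI27, with 2.17, 6.14 and 2.91 TPM in shCTL and 2.05, 15.3 and 3.00 TPM in shRor1.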
